A study of Homo sapiens with 18 samples.

Results

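The chaperonin TRiC, also called CCT, is built from the products of TCP1, CCT2, CCT3, CCT4, CCT5, CCT6A, CCT7 and CCT8, which were followed here at the level of mRNA and of ribosome footprints. These 8 genes were taken by symbol from a table of 17017 genes, and all 8 passed the filter on low counts in every comparison. The cells were MDA-MB-231, an established triple-negative breast carcinoma line, in which the mRNA of fibrillarin (FBL), a nucleolar methyltransferase acting on the ribose of ribosomal RNA, was knocked down. Cells of all groups were transduced with lentivirus and selected with puromycin. The control group SC carried a scramble hairpin, and the groups SH2 and SH3 each carried a hairpin against FBL. The protocols number the hairpins as knockdown 1 and 2, and whether SH2 or SH3 is the first of them is not stated. After a brief cycloheximide treatment, which halts elongating ribosomes, each lysate gave input cytoplasmic RNA (IN) and ribosome-protected footprints (RPF), with 3 replicates of each kind per group and 18 libraries in all. The labels do not say that replicates came from separate cultures, so p-values measure the spread between these samples, which may be technical.

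TRiC is a cytosolic double-ring ATPase. Each ring holds 1 copy of every subunit in a fixed order, and newly made proteins fold inside the closed cavity. Actins and tubulins are its best known obligate clients, and prefoldin and phosducin-like proteins deliver or help to fold clients. Within the ring TCP1, CCT2, CCT4 and CCT5 bind ATP more tightly and lie side by side, and CCT3, CCT6A, CCT7 and CCT8 form the side with weaker ATP binding. Its subunits are abundant in growing cells, and loss of any 1 of them impairs assembly of the complex.

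FBL RNA stood at 388 ± 36.4 CPM (counts relative to the TMM-scaled library size) in SC, 5.67 ± 5.09 with SH2 and 3.49 ± 0.612 with SH3 (SD, n = 3 each). SH2 replicate 3 kept the most FBL RNA, at 11.2 CPM against 1.26 and 4.52 in the other SH2 libraries. IN libraries held 23469830 to 27629488 counts. RPF libraries held 2486598 to 6098648 counts in SC, 2707201 to 4464734 with SH2 and 1662705 to 2862198 with SH3. Footprint depth thus varied within and between groups, with ranges that overlapped, and its part in the footprint results was not tested. VIM, a mesenchymal marker of this line, ranged from 4081 to 7223 CPM in RNA, while the hormone receptor genes ESR1 and PGR never had more than 2 counts in a library. The third receptor of the triple-negative definition, ERBB2, was present at 79.2 to 104 CPM and the epithelial keratin KRT18 at 469 to 722 CPM.

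Of the subunit genes, 3 were found to share a start region with a gene on the opposite strand in RefSeq (GRCh38.p14). CCT6A had no listed start window, so no neighbour could be sought for it. CCT5 was searched only from windows away from its RefSeq gene start, so neighbours of these subunits may have been missed. MRPL18 starts 210 bases from TCP1, TSACC starts 234 bases from CCT3 and COMMD1 starts 54 bases from CCT4. The stretch between the starts of TCP1 and MRPL18 and the 250 bases before the start of CCT2 are shown because the RNA of TCP1 and MRPL18 moved in opposite directions in SH2 and CCT2 was the subunit whose RNA rose. The TCP1 stretch is chr6:159789603-159789811 on the minus strand and the CCT2 stretch is chr12:69585209-69585458 on the plus strand, both from RefSeq and read 5' to 3' toward the subunit gene. Capitals mark ACTTCCG, the core letters of an ETS factor site.
TCP1: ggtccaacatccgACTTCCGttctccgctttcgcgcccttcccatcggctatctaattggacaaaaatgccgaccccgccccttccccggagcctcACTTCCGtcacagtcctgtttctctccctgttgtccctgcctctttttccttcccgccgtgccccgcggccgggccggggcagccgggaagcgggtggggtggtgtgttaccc
CCT2: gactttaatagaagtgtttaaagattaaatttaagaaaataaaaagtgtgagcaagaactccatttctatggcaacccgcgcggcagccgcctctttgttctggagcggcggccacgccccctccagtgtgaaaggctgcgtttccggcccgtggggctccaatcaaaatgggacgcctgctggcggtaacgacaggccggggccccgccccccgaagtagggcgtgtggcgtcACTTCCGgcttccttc
In windows of 250 bases before to 50 bases after the start, searched on both strands, ACTTCCG was present in 3 of the 6 subunit genes searched (TCP1, CCT2 and CCT7) and in 6.83% of 35116 RefSeq windows of that length. The letters CCAAT were present in 4 of the 6 (TCP1, CCT2, CCT3 and CCT8) and in 34.6% of all windows. The heat shock element letters GAANNTTC were found in TCP1 alone of the 6, against 6.77% of all windows, and TTCNNGAA in none of them, against 7.74%. The subunit windows were those at the RefSeq gene start, while the background took every window, so the shares are not like for like. These letter matches are descriptions of the sequence. CCT5 and CCT6A were not searched, as neither had a window at its RefSeq gene start.

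**Figure D1:**
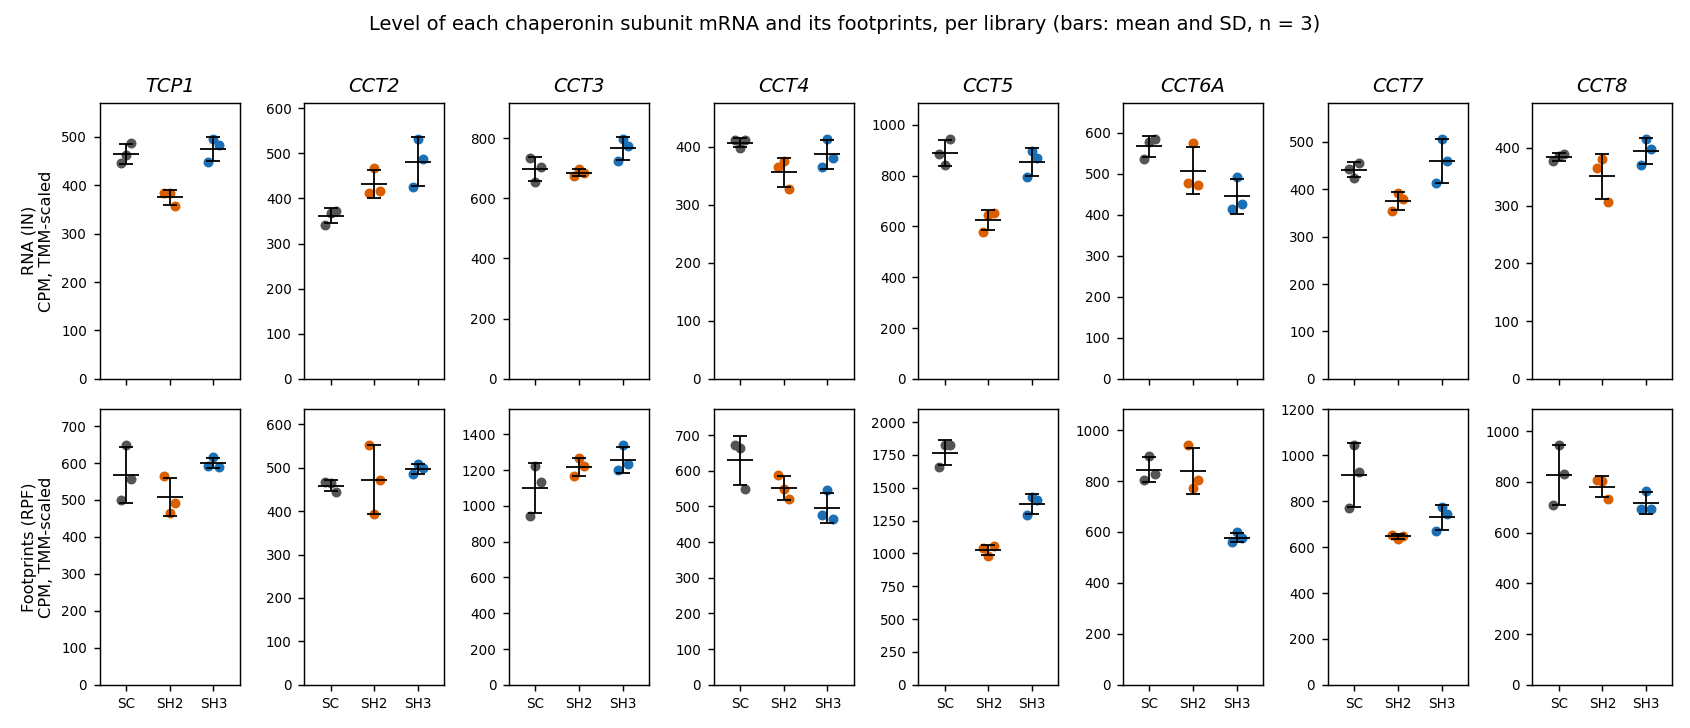
Level of each subunit mRNA (upper row) and of its footprints (lower row) in every library, as TMM-scaled CPM on axes that start at 0, with points for libraries and black bars for the mean and SD of 3. CCT5 in SH2 sits apart from SC in both rows. CCT6A footprints in SH3, at 561 to 599 CPM, sit below those in SC and SH2. CCT2 RNA is higher in both hairpin groups than in SC.

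The RNA comparisons ask which subunit transcripts changed in abundance after the knockdown. In SH2, RNA of TCP1, CCT5 and CCT7 was lower and RNA of CCT2 was higher than in SC, while CCT3, CCT4, CCT6A and CCT8 did not pass the test. Thus 4 of 8 members were called at an adjusted p under 0.05 (edgeR quasi-likelihood test), 1 higher and 3 lower, beside 61.4% of all 12710 genes tested, 31.1% higher and 30.4% lower. The share of subunits called was not above that background. The median log2 change of the members was -0.18 and that of all genes was 0.01. In RNA from whole cultures, less RNA per cell and fewer cells with the transcript cannot be told apart.

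CCT5, which can also assemble into rings of its own in the absence of its partners, had the largest fall of the 8. Its RNA was 884, 842 and 945 CPM in the SC libraries, 578, 644 and 652 with SH2 and 793, 898 and 870 with SH3. Every SH2 library was below every SC and SH3 library, and the SC and SH3 ranges overlapped. The log2 change was -0.51 with SH2 (SE 0.0937, edgeR adjusted p 0.000321) and -0.06 with SH3 (SE 0.0935, adjusted p 0.607).

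TCP1, the founding subunit of the family and its alpha member, was 446, 463 and 487 CPM in SC RNA, 384, 384 and 357 with SH2 and 448, 496 and 482 with SH3. The SH2 libraries lay below all others and SH3 overlapped SC. Its log2 change was -0.31 with SH2 (SE 0.0869, edgeR adjusted p 0.00661) and 0.03 with SH3 (SE 0.0868, adjusted p 0.784). Without SH2 replicate 3, the library with the most FBL left, the SH2 values were -0.30 for TCP1 (adjusted p 0.0145) and -0.57 for CCT5 (adjusted p 0.000653).

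CCT2, the beta subunit, which has also been described as an autophagy receptor for protein aggregates, was the member whose RNA rose. Its SC libraries stood at 342, 368 and 373 CPM, the SH2 libraries at 412, 467 and 417 and the SH3 libraries at 425, 532 and 487. All 6 hairpin libraries lay above all SC libraries. On the log2 scale the change was 0.26 with SH2 (SE 0.101, edgeR adjusted p 0.0388) and 0.41 with SH3 (SE 0.101, adjusted p 0.00342). The SH2 call was lost in 6 of 12 other settings, among them the removal of any 1 of the SC replicates (adjusted p 0.124, 0.0621 and 0.0657 without replicates 1, 2 and 3) and of SH2 replicate 2 or 3 (0.131 and 0.0629), and a fit of only the groups compared (0.0577). The SH3 call held in all 12.

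CCT7, the eta subunit, was 442, 425 and 456 CPM in SC RNA, 355, 392 and 380 with SH2 and 413, 506 and 459 with SH3. Its SH2 libraries were below the other 6. The log2 change was -0.23 with SH2 (SE 0.0955, edgeR adjusted p 0.0477) and 0.06 with SH3 (SE 0.0954, adjusted p 0.628). The SH2 call was lost in 6 of 12 other settings, including no filter on low counts (adjusted p 0.0688), without any 1 SC replicate (adjusted p 0.0510, 0.0550 and 0.135 without replicates 1, 2 and 3), without SH2 replicate 1 (0.149) and with library totals alone as the scaling (0.211).

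In SH3, 2 of 8 members were called in RNA, CCT2 higher and CCT6A lower, beside 53% of all genes, 27.8% higher and 25.2% lower. The median log2 change of the members was 0.03, as was that of all genes. CCT6A, the zeta subunit of somatic tissues, stood at 536, 578 and 585 CPM in SC, 476, 574 and 472 with SH2 and 414, 492 and 427 with SH3. The SH3 libraries lay below all SC libraries, and SH2 lay between and overlapped both. On the log2 scale the change was -0.35 with SH3 (SE 0.104, edgeR adjusted p 0.0116) and -0.16 with SH2 (SE 0.104, adjusted p 0.201). CCT6B, its testis-enriched paralog, was at 0.545 to 1.204 CPM in RNA and was not called in either hairpin.

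The other subunits did not pass the RNA test against SC. CCT3, the gamma subunit, averaged 698 ± 40.4 CPM in SC, 685 ± 11.5 with SH2 and 766 ± 37.3 with SH3 (SD, n = 3 each), with log2 changes of -0.03 (95% interval -0.21 to 0.16) and 0.13 (-0.05 to 0.32). With library totals alone as the scaling, CCT3 RNA in SH3 was called at 0.22 (edgeR adjusted p 0.0336), where the median of all genes also moved from 0.03 to 0.12. CCT4, the delta subunit, averaged 407 ± 7.55, 356 ± 24.9 and 387 ± 24.4 CPM, with changes of -0.19 in SH2 (edgeR adjusted p 0.0770) and -0.07 in SH3 (adjusted p 0.511). CCT8, the theta subunit, averaged 385 ± 6.71, 351 ± 39.1 and 395 ± 23.3 CPM, with changes of -0.13 (95% interval -0.34 to 0.08) and 0.04 (-0.17 to 0.25). For CCT4 in SH2 the interval ran from -0.39 to 0.00, so the test does not show that the RNA of these subunits was the same. RefSeq lists 17 pseudogenes named after the 8 genes, from 0 for CCT2 to 5 for CCT6A. How reads that match several places were counted is not given in the sources used here, so a part of the counts of a subunit may belong to its copies or be lost to them.

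**Figure D2:**
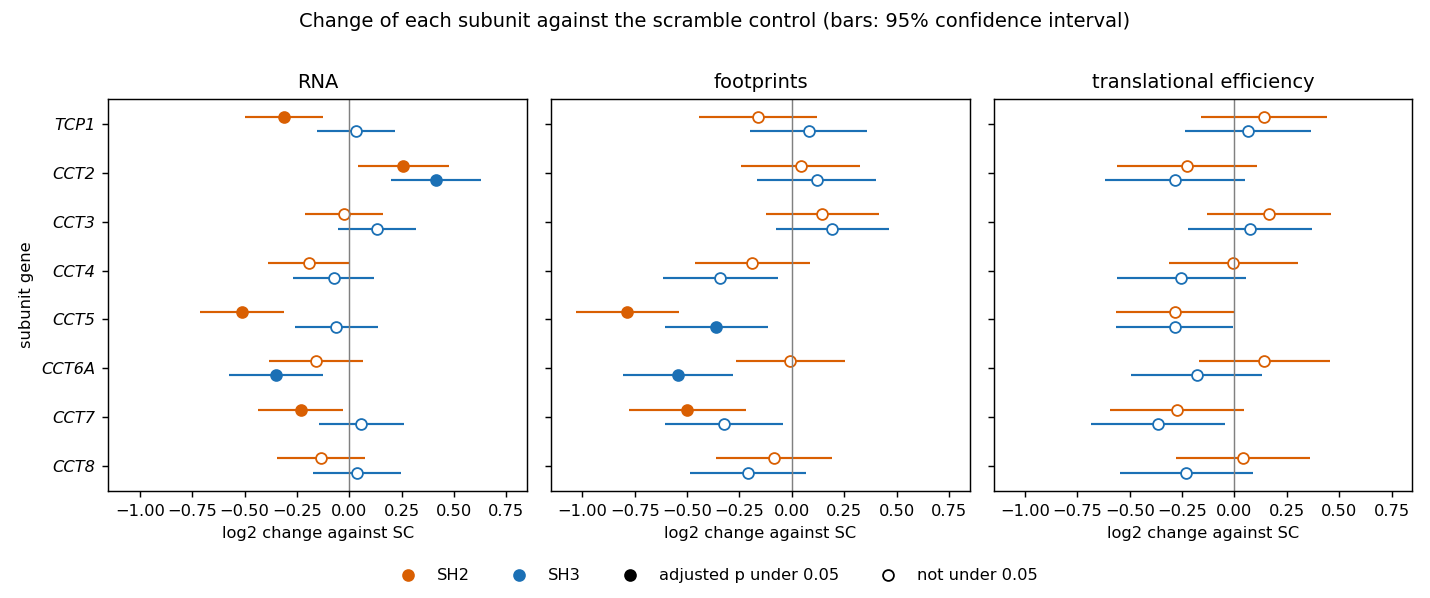
Log2 change of each subunit against SC in RNA, footprints and translational efficiency, orange for SH2 and blue for SH3, with 95% confidence intervals. Filled points have an edgeR adjusted p under 0.05. Filled points are found for CCT5, CCT7, TCP1, CCT2 and CCT6A in RNA and for CCT5, CCT7 and CCT6A in footprints, and there are none in translational efficiency.

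Footprint counts report the ribosomes on all mRNA copies of a gene together, relative to the other genes, and not the number per mRNA. In SH2, footprints of CCT5 and CCT7 were lower than in SC, and no member was higher. These 2 of 8 members stand beside 44.2% of 10345 genes called, 21% higher and 23.2% lower, and the median change of the members was -0.12 on the log2 scale. In SH3, footprints of CCT5 and CCT6A were lower, again 2 of 8, beside 35.9% of genes called, 16.9% higher and 19% lower, with a member median of -0.27. The medians of all genes were -0.0042 and -0.014.

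CCT5 footprints were 1654, 1824 and 1827 CPM in SC, 1040, 979 and 1057 with SH2 and 1293, 1433 and 1405 with SH3. The 3 groups did not overlap, with SH2 lowest and SC highest. The log2 change was -0.79 with SH2 (SE 0.116, edgeR adjusted p 6.90e-05) and -0.36 with SH3 (SE 0.116, adjusted p 0.0233). The SH2 call held in all 12 other settings, with changes from -0.83 to -0.75. The SH3 call was lost in 6 of 12, where the adjusted p reached 0.0962: without SC replicate 2 or 3 (0.0523 and 0.0917), without SH3 replicate 1, 2 or 3 (0.0962, 0.0575 and 0.0641), and with library totals alone (0.0596).

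CCT7 footprints were 769, 1046 and 926 CPM in SC, 654, 634 and 650 with SH2 and 671, 773 and 744 with SH3. The SH2 libraries agreed closely and lay below the other groups, while 1 SH3 library reached into the wide SC range. On the log2 scale the change was -0.50 with SH2 (SE 0.133, edgeR adjusted p 0.00630), a call kept in all 12 other settings, and -0.32 with SH3 (SE 0.132, adjusted p 0.0666). Without SH2 replicate 3, the library with the most FBL left, the SH2 footprint changes were -0.49 for CCT7 (adjusted p 0.0247) and -0.80 for CCT5 (adjusted p 0.000608).

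CCT6A footprints were 806, 899 and 827 CPM in SC, 942, 771 and 805 with SH2 and 561, 599 and 575 with SH3. The SH3 libraries lay well under all others, and SH2 spanned the SC range. The log2 change was -0.54 with SH3 (SE 0.124, edgeR adjusted p 0.00295), kept in all 12 other settings, and -0.01 in SH2 (95% interval -0.27 to 0.25).

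CCT4 footprints were 673, 664 and 550 CPM in SC, 587, 548 and 520 with SH2 and 476, 545 and 466 with SH3, so all SH3 values were below the lowest SC value. The log2 change in SH3 was -0.34 (SE 0.130, edgeR adjusted p 0.0501), at the edge of the threshold, and DESeq2 gave an adjusted p of 0.0446. The change in SH2 was -0.19 (SE 0.129, adjusted p 0.251).

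Footprints of the remaining subunits did not pass the test. CCT2 footprints averaged 458 ± 12.1 CPM in SC, 472 ± 79.3 with SH2 and 497 ± 11.3 with SH3 (SD, n = 3 each), changes of 0.04 (95% interval -0.24 to 0.33) and 0.12 (-0.17 to 0.40). TCP1 averaged 568 ± 75.9, 507 ± 51.5 and 600 ± 14.4 CPM, changes of -0.16 and 0.08. CCT3 averaged 1101 ± 142, 1218 ± 51.3 and 1259 ± 73.7 CPM, changes of 0.15 and 0.19. CCT8 averaged 829 ± 118, 781 ± 40.6 and 716 ± 42.4 CPM, changes of -0.08 and -0.21. The SH3 libraries of CCT2, at 485 to 508 CPM, all lay above its SC libraries, at 445 to 467, while for TCP1, CCT3 and CCT8 both hairpin groups overlapped SC.

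Translational efficiency, the footprint change beyond the RNA change, was tested in 1 model over all 18 libraries. No member was called in SH2, beside 3.9% of 12531 genes, and none in SH3, beside 0.686%. DESeq2 also called 0 members in each. A block by lysate took RNA and footprints of the same number as a pair. It called 191 genes in SH2 in place of 489 and 23 in SH3 in place of 86, with no member among them. In SC and SH2 the numbers were not taken to pair RNA with footprints. Their same-numbered deviations from group means correlated at -0.492 to 0.263 and -0.308 to 0.497. Both comparisons use SC, so no conclusion is drawn from this block. At an unadjusted p under 0.05 edgeR had 1 member in SH2 (CCT5) and 2 in SH3 (CCT5 and CCT7), beside 2248 and 1574 of the 12531 genes. CCT5 efficiency changed by -0.28 with SH2 (SE 0.135, edgeR adjusted p 0.272) and by -0.29 with SH3 (SE 0.135, adjusted p 0.384). CCT7 efficiency changed by -0.27 (SE 0.153, adjusted p 0.365) and -0.37 (SE 0.153, adjusted p 0.304). CCT2, the subunit with more RNA, had values of -0.23 (SE 0.161, adjusted p 0.496) and -0.28 (SE 0.161, adjusted p 0.4998). The other members ranged from -0.0049 for CCT4 to 0.16 for CCT3 in SH2, and from -0.25 for CCT4 to 0.07 for CCT3 in SH3. The SEs of 0.135 to 0.161 bound what could be seen, and none of these values shows that efficiency was the same.

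The ratio of mean footprint CPM to mean RNA CPM, a scale set within each library kind, followed these values. For CCT5 it was 1.99 in SC, 1.64 with SH2 and 1.61 with SH3. For CCT7 it was 2.07, 1.72 and 1.59, and for CCT2 it was 1.27, 1.09 and 1.03. CCT8 stood at 2.15, 2.23 and 1.82 and CCT3 at 1.58, 1.78 and 1.64, so in those genes the hairpin groups fell on either side of SC or above it.

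The SC libraries are shared by both comparisons above, and SH2 was therefore also set directly against SH3. In RNA, 3 of 8 members were lower in SH2 than in SH3 and none was higher, beside 39.3% of all genes called, 18.9% higher and 20.4% lower. They were CCT5 (log2 difference -0.45, SE 0.0937, edgeR adjusted p 0.00191), TCP1 (-0.34, SE 0.0869, adjusted p 0.00684) and CCT7 (-0.29, SE 0.0955, adjusted p 0.0269). The CCT7 difference was lost in 4 of 12 other settings, without SH2 replicate 1 or 3 (adjusted p 0.0936 and 0.0557) or SH3 replicate 2 or 3 (0.140 and 0.0890). CCT2 RNA was lower in SH2 than in SH3 by 0.16 on the log2 scale without passing the test (95% interval of the difference -0.37 to 0.06).

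In footprints, CCT5 was lower in SH2 than in SH3 (log2 difference -0.43, SE 0.116, edgeR adjusted p 0.0145) and CCT6A was higher (0.54, SE 0.124, adjusted p 0.00533). These 2 of 8 members stand beside 23.8% of genes called, 12.1% higher and 11.6% lower. The CCT5 difference was lost without SH2 replicate 2 (adjusted p 0.0609), SH3 replicate 2 (0.0676) or SH3 replicate 3 (0.0509). No member differed in translational efficiency, beside 0.016% of genes, and DESeq2 also called none. CCT6A alone had an unadjusted p under 0.05 by edgeR (difference 0.32, adjusted p 0.414).

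**Figure D3:**
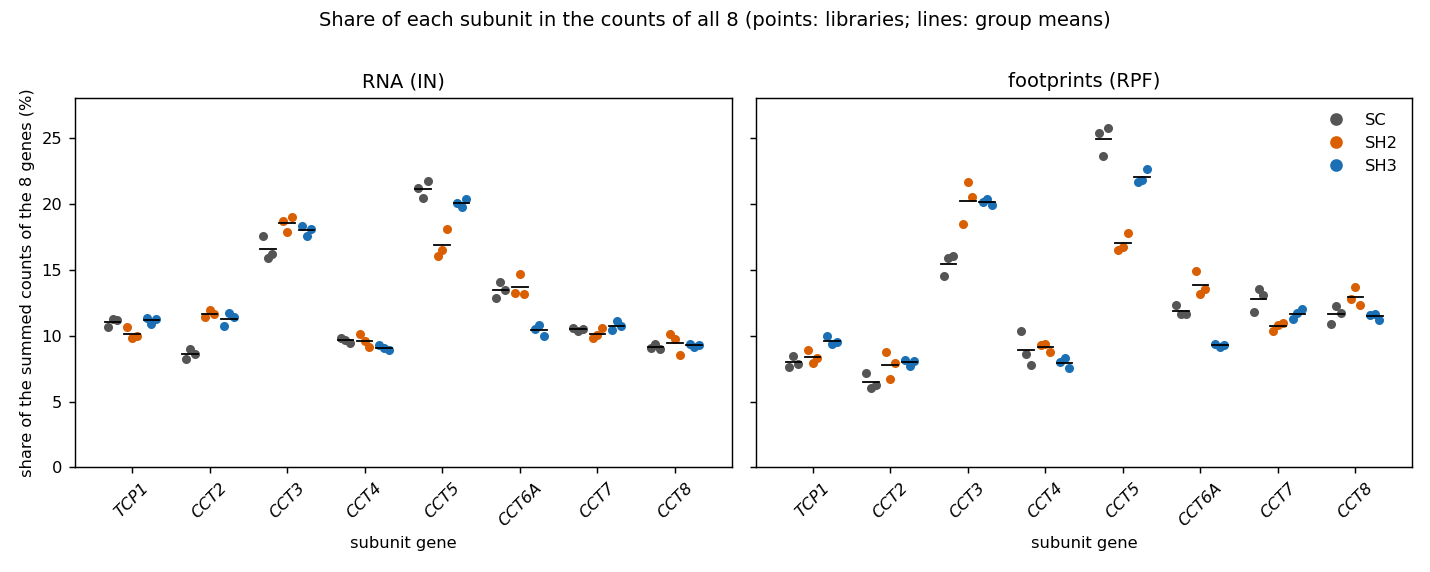
Share of each subunit in the summed counts of the 8 genes, in percent, for every library (points) with group means (lines), RNA on the left and footprints on the right. In footprints CCT5 goes from 24.9% in SC to 17.0% with SH2 and 22.0% with SH3, CCT3 from 15.4% to 20.2% and 20.1%, and CCT6A is lowest in SH3.

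The share of each subunit in the summed counts of all 8 does not depend on how libraries are scaled. As gene lengths enter these shares, they are compared here only within a gene. CCT5 made up 24.9 ± 1.12% of the footprints of the 8 in SC, 17.0 ± 0.687% with SH2 and 22.0 ± 0.540% with SH3 (SD, n = 3 each), and the ranges of the 3 groups did not meet. In RNA its shares were 21.1 ± 0.627%, 16.9 ± 1.11% and 20.0 ± 0.300%. CCT3, whose level did not pass the tests against SC above, took 15.4 ± 0.827% of the footprints in SC and 20.2 ± 1.61% and 20.1 ± 0.252% in SH2 and SH3, above SC in every hairpin library. CCT2 went from 8.57 ± 0.376% of the RNA in SC to 11.6 ± 0.263% and 11.3 ± 0.485%. CCT6A held 11.9 ± 0.406% of the footprints in SC, 13.9 ± 0.932% with SH2 and 9.25 ± 0.147% with SH3. Since the shares sum to the whole, a gain in 1 subunit can come with no change in its own level.

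The 8 genes together held 0.404 ± 0.0170% of all RNA counts in SC, 0.379 ± 0.0175% with SH2 and 0.434 ± 0.0290% with SH3. Of all footprints they held 0.695 ± 0.0390%, 0.595 ± 0.0333% and 0.644 ± 0.0291% (SD, n = 3 each). The RNA ranges of SC and both hairpin groups overlapped. In footprints the SH2 libraries, at 0.563% to 0.630%, were all below the SC libraries, at 0.659% to 0.736%, and SH3 overlapped SC. These shares are relative to library totals. As mean log2 CPM with TMM scaling, the 8 stood in RNA at 8.97 in SC, 8.81 with SH2 and 8.99 with SH3. In footprints these means were 9.67, 9.48 and 9.50. No test was made of these sums or means.

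The neighbours found to share a start region with a subunit were read beside it. MRPL18, a protein of the mitochondrial ribosome, was 30.5, 50.7 and 46.1 CPM in SC RNA, 84.6, 79.5 and 88.1 with SH2 and 54.1, 68.8 and 61.1 with SH3. All hairpin libraries were above SC, with log2 changes of 0.99 with SH2 (SE 0.155, edgeR adjusted p 8.74e-05) and 0.53 with SH3 (SE 0.154, adjusted p 0.0101), the latter 0.41 with an adjusted p of 0.0712 without SH3 replicate 2. MRPL18 footprints changed by 0.63 (SE 0.166, adjusted p 0.00582) and 0.43 (SE 0.169, adjusted p 0.0577). TCP1 RNA, across the 209 bases shown above, was lower in SH2 and not called in SH3. TSACC, beside CCT3, rose in RNA by 1.59 and 1.09 (SE 0.246 and 0.255, edgeR adjusted p 7.91e-05 and 0.00258), from 17 to 22 counts per SC library. COMMD1, beside CCT4, changed by 0.19 and 0.27 (adjusted p 0.175 and 0.0768). The listed starts of each pair lie apart and the genes point away from each other, so these ends do not overlap. No strand setting of the counting is given in the sources used here, so reads from beyond these starts could not be assigned by strand.

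**Figure D4:**
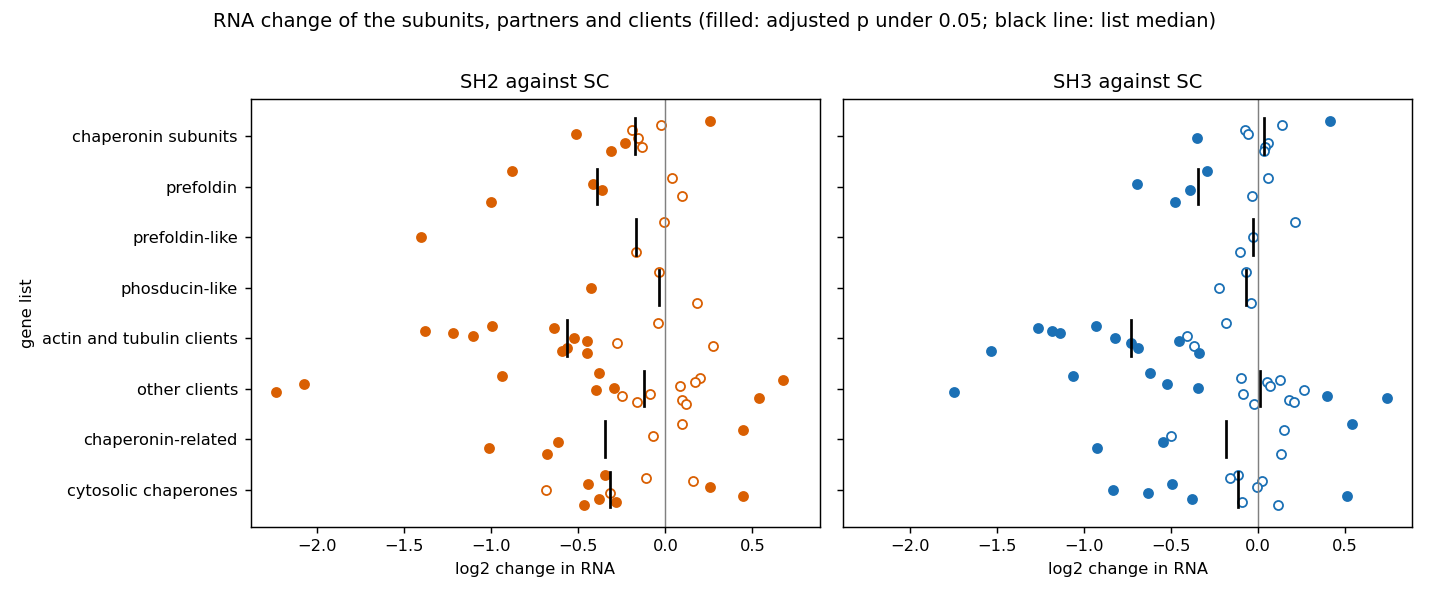
Log2 change in RNA of the subunits and of listed partners and clients, SH2 on the left and SH3 on the right, on 1 shared axis. Filled points have an edgeR adjusted p under 0.05 and black lines are list medians. The actin and tubulin list has its median at -0.57 with SH2 and -0.73 with SH3, while the subunits have theirs at -0.18 and 0.03.

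The genes that work with the chaperonin were followed as lists. Of the 6 subunits of prefoldin, which captures unfolded actin and tubulin and hands them to TRiC, 4 fell in RNA in each hairpin and none rose (list medians -0.39 and -0.34), beside 30.4% of all genes lower in SH2 and 25.2% in SH3. VBP1 changed by -1.005 with SH2 and -0.48 with SH3 (edgeR adjusted p 1.47e-06 and 0.00105), PFDN4 by -0.42 and -0.70 (0.00585 and 0.000204) and PFDN1 by -0.88 and -0.30 (7.29e-06 and 0.0262). In footprints 3 of the 6 fell in SH2 and 1 in SH3, beside 23.2% and 19% of all genes. In RNA, the prefoldin-like genes URI1, UXT and PDRG1 had 1 of 3 lower in SH2 and none called in SH3. Their footprints had 2 of 3 lower in SH2 and none called in SH3. Of the phosducin-like cofactors PDCL, PDCL3 and TXNDC9, 1 of 3 was lower in RNA in SH2 and none was called in SH3. In footprints 2 of these 3 were lower in SH2 and 1 in SH3. The shares of all genes lower are those given above for each measure.

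Of the 13 actins and tubulins listed, which include the obligate clients of TRiC, 10 fell in RNA in each hairpin and none rose, with medians of -0.57 and -0.73, beside 30.4% and 25.2% of all genes lower. TUBA1B changed by -1.38 and -1.18 (edgeR adjusted p 3.18e-07 and 2.40e-06), TUBA1C by -1.22 and -1.14 (1.61e-07 and 6.02e-07) and TUBB6 by -0.60 and -1.53 (0.000287 and 2.67e-07). In footprints 8 of the 12 tested fell in each hairpin, beside 23.2% and 19% of all genes. ACTB, cytoplasmic beta-actin, moved little in SH2 RNA, at -0.04 (edgeR adjusted p 0.762), and was at -0.19 in SH3 (0.199). ACTG1, the other actin listed, changed by -0.998 and -0.934 (3.54e-06 and 1.15e-05). Both actins are named after their values were seen. The difference between this list and the subunits was not tested.

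Among the 16 other clients, 2 rose and 6 fell in RNA in SH2, and 2 rose and 5 fell in SH3, beside 61.4% and 53% of all genes called in either direction. The genes named next are those with the largest changes and do not describe the list. PLK1, a mitotic kinase, changed by -2.23 and -1.75 (edgeR adjusted p 2.78e-07 and 3.66e-06). GNB4, a G protein beta subunit, changed by -2.08 and -0.52 (3.71e-08 and 0.00299). CDC20, the activator of the anaphase-promoting complex, which TRiC folds, changed by -0.94 and -1.07 (1.63e-05 and 9.85e-06).

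The mitochondrial chaperonin and other relatives of TRiC formed a list of 6. In RNA 1 rose and 3 fell with SH2, while 1 rose and 2 fell with SH3, beside 61.4% and 53% of all genes called. In footprints 2 of the 5 tested rose and 2 fell in each hairpin, beside 44.2% and 35.9% of all genes called. The footprint medians of this list were 0.12 with SH2 and 0.33 with SH3. HSPD1, the mitochondrial chaperonin, changed in RNA by -0.62 and -0.55 (edgeR adjusted p 0.000141 and 0.000513), and HSPE1, its lid, by -1.01 and -0.93 (7.71e-07 and 3.34e-06). Of 11 cytosolic chaperones and their regulator HSF1, 2 rose and 5 fell in RNA in SH2. In SH3 RNA 1 rose and 4 fell, beside the same 61.4% and 53% of all genes. HSPA4 rose by 0.44 and 0.51 (adjusted p 0.00100 and 0.000471), HSP90AA1 changed by -0.44 and -0.50 (0.00103 and 0.000601), and HSPA8 by -0.38 in both (0.00539 and 0.00678). In translational efficiency 3 genes of these lists were called, and they are named after their values were seen: FZR1 (-0.70) and BBS10 (0.97) in SH2 and HDAC3 (-0.86) in SH3.

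The genes with the profile closest to the mean of the 8 were found by the root mean square distance of log2 CPM, centred per gene and library kind, over the 18 libraries. Of 10327 non-members the nearest included CAPNS1 (0.0655), HSPA9 (0.0679), SUGT1 (0.0825) and TARS1 (0.0885), beside a median of 0.353 for all of them. Measured in the same way against the mean of the other 7, CCT8 lay at 0.0855, CCT4 at 0.114, TCP1 at 0.120, CCT7 at 0.120, CCT3 at 0.163 and CCT2 at 0.204. CCT5 and CCT6A were the farthest from their partners, each at 0.241. When each subunit was ranked among the distances of the non-members to the same mean, CCT8 stood at rank 4, CCT4 at 49, TCP1 at 64 and CCT7 at 74, while CCT3 stood at 336, CCT2 at 1021, CCT6A at 1978 and CCT5 at 2080. These distances are descriptions and share the libraries of the tests above.

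In the authors' deposited table of DESeq2 comparisons, 5 members had an adjusted p under 0.05 in RNA in SH2 (1 higher, 4 lower) and 2 in SH3. For footprints, the authors' deposited table had 2 such members for SH2 and 3 for SH3, all lower. The share of all genes under that threshold in the authors' deposited table was not counted. By the edgeR fits above, the share of all genes called was 61.4% in SH2 and 53% in SH3 for RNA. For footprints it was 44.2% and 35.9%. The log2 changes in the authors' deposited table differed from the values above by at most 0.0255 over 32 values, and the calls differed for CCT4 alone, which the authors' deposited table has at an adjusted p of 0.0357 in SH2 RNA and 0.0481 in SH3 footprints. The authors' deposited table also holds a measure named RD, for which the SH2 and SH3 columns were identical in all 17017 genes. Its values for the 8 members were within 0.00151 of the SH3 change in translational efficiency computed here, and up to 0.323 from the SH2 change, and no member had an adjusted p under 0.05 in the RD columns of the authors' deposited table.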

How the data were processed

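Input RNA and footprint libraries of 3 treatments, 3 replicates each, were read from 1 table. The counts per gene and library are raw counts as deposited by the authors. The table also has a normalized signal, log2 fold changes and p-values, which per the file headers are the authors' DESeq2 output. Bowtie 1.2.2 and DESeq2 are named in the submitters' processing notes. The genome build, annotation and counting rules are not given in the sources used here.

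Counts were tested with edgeR 4.0.16 (R 4.3.3): filterByExpr, TMM scaling, the two-sided quasi-likelihood test, and Benjamini-Hochberg adjustment over all genes tested. RNA and footprints had 1 fit of 9 libraries each. Translational efficiency was an interaction contrast over all 18. Called means an adjusted p under 0.05, and intervals are at 95%. The scripts were tested on simulated data. Alternatives were RLE size factors, library totals alone, no filter, DESeq2 1.42.0, only the groups compared, replicate blocks, scaling within each library kind for translational efficiency, and leaving out each replicate. Profile distances used log2(CPM + 0.5).

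The members, gene lists and tests were chosen with earlier results of these data known. Named by rule were the members, the neighbours with a start within 1000 bases on the opposite strand, the 5 nearest profiles (1 is not reported here), and up to 3 genes per list called in RNA in both hairpins (up to 2 in translational efficiency, where none was) with the largest mean change. Replicates of a group differed by more than counting noise (chi-square per degree of freedom 3.38 to 56.3 over 18 pairs). Deviations of same-numbered SC and SH2 libraries correlated at 0.364 to 0.405 in RNA and 0.241 to 0.289 in footprints. The numbers were therefore taken to pair SC with SH2. The main fits have no term for this pairing, so their p-values are unpaired. The replicate block by number has such a term but also treats SH3 as paired. RNA and footprints of SH3 correlated at 0.207 to 0.417 by number and were taken as paired, while those of SC (-0.492 to 0.263) and SH2 (-0.308 to 0.497), and SH3 with the other groups, were not. The block by lysate called no member in translational efficiency. Intervals and SEs come from the replicates. A planned level per coding length and 3 listed small nucleolar RNAs (SNORA20, SNORA29, SNORA15), 0 of 3 tested, were not analysed here.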

Additional observations from a re-analysis of the deposited data

Results flagged for a closer look

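These results were singled out because the change of a subunit differed between the hairpins by the direct edgeR test of SH2 against SH3. In RNA, TCP1 differed by -0.34 (adjusted p 0.00684), CCT5 by -0.45 (adjusted p 0.00191) and CCT7 by -0.29 (adjusted p 0.0269) on the log2 scale, each lower in SH2. In footprints, CCT5 differed by -0.43 (adjusted p 0.0145), lower in SH2, and CCT6A by 0.54 (adjusted p 0.00533), lower in SH3. In all 5 cases the 3 libraries of one hairpin lay entirely on one side of the 3 of the other. The mean FBL RNA left was 5.67 ± 5.09 CPM with SH2 and 3.49 ± 0.612 CPM with SH3 (SD, n = 3 each). The part that residual FBL or effects particular to 1 hairpin play in these differences was not tested.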

How the results depend on the processing

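No member was called in translational efficiency in any setting. The calls of CCT5 in SH2 (RNA and footprints), CCT6A and CCT2 RNA in SH3, CCT6A footprints in SH3, TCP1 RNA in SH2 and CCT7 footprints in SH2 were kept in all 12 other settings. The number of members called in RNA in SH2, 4, was 2 to 5 without 1 replicate, and 2 without any 1 SC replicate. For SH2 against SH3 the footprint count of 2 became 1 to 2 without 1 replicate. The SH3 footprint count of 2 was 1 with library totals alone, 4 with a replicate block and 1 to 3 without 1 replicate. The replicate block, which treats equal numbers as pairs, changed no call of a member in SH2 against SC. The log2 change of the summed share of the 8 in RNA in SH2 was -0.09, and -0.17 as mean log2 CPM with TMM. Calls were gained for CCT3 RNA in SH3 (adjusted p 0.0336, library totals), CCT4 RNA in SH2 (0.0305 with DESeq2, 0.0435 without SH2 replicate 2), CCT6A RNA in SH2 (0.0387 without SH2 replicate 2), CCT4 footprints in SH3 (0.0446 with DESeq2, 0.0277 with a replicate block, 0.0417 without SC replicate 3) and CCT7 footprints in SH3 (0.0416 with a replicate block, 0.0158 without SC replicate 1). The cause of these shifts was not tested.

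Values near 0 changed sign, none of them called in either setting. With library totals alone these were RNA of CCT3 in SH2 (0.0676), of CCT4 (0.0140) and CCT5 (0.0276) in SH3, and CCT8 translational efficiency in SH2 (-0.0327). CCT6A footprints in SH2 were 0.0033 with library totals, 0.0028 with RLE, 0.0028 with DESeq2 and 0.0023 with only the groups compared, and -0.0878 to 0.0586 without 1 replicate. CCT4 translational efficiency in SH2 was 0.00071 with a block by lysate, 0.0073 with scaling within library kind, and -0.096 to 0.0629 without 1 replicate. TCP1 RNA in SH3 was -0.0043 with only the groups compared. Without 1 replicate, SH3 RNA of TCP1 ranged from -0.0346 to 0.0631, of CCT7 from -0.0509 to 0.0896 and of CCT8 from -0.0360 to 0.0461. SH2 footprints of CCT2 ranged from -0.0746 to 0.17 and of CCT8 from -0.18 to 0.0216. Translational efficiency ranged from -0.0261 to 0.12 for CCT8 in SH2 and from -0.0472 to 0.18 for CCT3 in SH3.

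Over all genes, calls in translational efficiency went from 489 in SH2 to between 110 (without SH2 replicate 3) and 910 (DESeq2), from 86 in SH3 to between 10 (without SC replicate 3) and 355 (DESeq2), and from 2 in SH2 against SH3 to between 0 (a block by lysate) and 229 (DESeq2). Footprint calls for SH2 against SH3 went from 2459 to 1541 without SH3 replicate 2. Of the SH2 efficiency calls 37.0% were higher, and 21.3% with library totals alone. RPF libraries held 1662705 to 6098648 counts, fewer than RNA libraries, and what depth alone did to these tests was not tested.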
